A study of Homo sapiens with 6 samples.

Results

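Synaptic vesicle and SNARE genes were examined in SH-SY5Y cells with a lasting shortage of TDP-43. The set was chosen by name and holds 9 genes, SYN1, SYP, SYT1, SYT4, SYT11, SNAP25, STX1A, VAMP2 and RAB3A, all of which were found among the 26372 genes of the deposited table. SH-SY5Y cells derive from a human neuroblastoma, a tumour of the sympathetic nervous system. In the knockdown group the cells had received a lentivirus that expresses a short hairpin RNA (shRNA) directed at TDP-43 (shT2 in the labels), and stable knockdown cells had been selected and kept in puromycin. In the control group the cells carried a control shRNA in the same vector, named shNC3. Each group gave 3 poly(A) RNA libraries, made with a directional kit. Each arm has a single hairpin name, and the labels do not say whether an arm is a clone or a pool, or whether separate cultures lay behind its libraries. The p-values therefore reflect library-to-library spread, which may be technical. TARDBP, the gene of TDP-43, had a level of 21.2 ± 0.598 FPKM in knockdown libraries and 49.5 ± 1.49 FPKM in control libraries (SD, n = 3 each).

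Nerve cells and neuroendocrine cells store transmitter in vesicles that fuse with the plasma membrane when calcium enters. Fusion is driven by SNARE proteins, of which VAMP2 sits on the vesicle and STX1A (syntaxin 1A) and SNAP25 on the plasma membrane. Synaptotagmins such as SYT1 sense calcium on the vesicle, synapsins such as SYN1 tether vesicles in reserve, SYP (synaptophysin) is an abundant protein of the vesicle membrane, and RAB3A is a small GTPase that helps vesicles dock. Values are FPKM, in which fragments are divided by the length of the transcript and the size of the library, so levels of different genes can be set side by side. Differences were tested on log2(FPKM + 1) by limma across the 13434 genes that averaged at least 1 FPKM, and a gene was called at a Benjamini-Hochberg adjusted p under 0.05. The sequencing depth behind FPKM is unknown, but steps between low values put the libraries at 52.9% to 94.4% of the deepest in the knockdown and at 84.2% to 100% in the control, with knockdown library 2 the shallowest.

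The libraries also differed in markers of cell identity. Non-overlap alone was common, since 32.5% of all tested genes lay wholly above the control values in the knockdown and 38.2% wholly below. Of 15 mesenchymal (substrate-adherent) markers, 13 lay lower and 1 higher in all knockdown libraries than in any control library. Their summed levels, which mostly reflect the most abundant markers, were 792 to 806 FPKM in the knockdown and 2792 to 2830 FPKM in the control. The median log2 fold change of the 15 was -2.68, against -0.020 over all tested genes, whose 10th percentile was -0.84. CAV1 was listed at 0 in every knockdown library. Of 14 noradrenergic neuroblastoma markers, 9 lay higher and 3 lower on the deposited scale, with sums of 1297 to 1405 FPKM in the knockdown and 854 to 863 FPKM in the control. With columns rescaled to equal sums, 4 of these noradrenergic markers were called higher and 8 lower, against 505 and 11840 of 13582 tested genes. GATA3 and HAND2, transcription factors that define that identity, were well above 0 in both groups, and TH, the first enzyme of catecholamine synthesis, was listed at 0 in all 6 libraries. Of 8 Schwann and glial markers, 3 lay higher, near the share of all tested genes, and 0 lower. Their sums were 24.6 to 26.9 FPKM in the knockdown and 8.70 to 9.71 FPKM in the control, and 4 (SOX10, ERBB3, GFAP and MBP) stayed under 1 FPKM throughout. The part of these shifts in the results below was not tested, and in these bulk libraries more cells of a type and more RNA per cell cannot be told apart.

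All 9 synaptic genes passed the filter on low values and all 9 were called, 7 higher and 2 lower in the knockdown. SYP and SNAP25 had the largest rises, SYN1, RAB3A, STX1A, SYT1 and VAMP2 rose less, SYT4 fell to 0.322 times its control level, and SYT11 fell slightly. Across all tested genes 66.3% were called, 30.5% higher and 35.9% lower, so a call alone sets none of the 9 apart. On the log2(FPKM + 1) scale, 3 of the 9 (SYP, SNAP25 and SYT4) were called with a 2-fold or larger difference, against 11.3% of all tested genes. That scale understates changes of low genes, and the means of SYN1 and RAB3A also differed more than 2-fold. In each of the 9 genes the 3 knockdown values lay wholly above or wholly below the 3 control values, which held for 70.8% of all tested genes (32.5% above and 38.2% below). The median log2 fold change was 0.65 over the 9 genes and -0.020 over all genes tested.

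**Figure D1:**
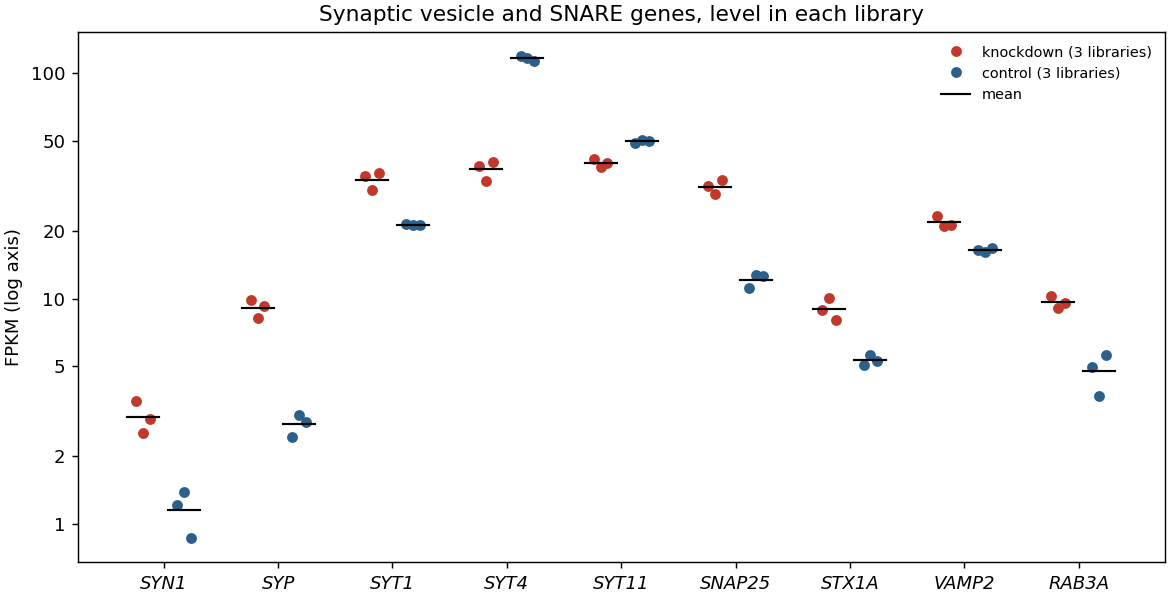
FPKM of the 9 genes on a log axis, with one point for each of 3 knockdown libraries and 3 control libraries and a bar at the mean. The groups do not overlap for any gene. SYT4 and SYT11 are lower in the knockdown, and the other 7 are higher.

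The start regions shown are those of SYN1, which holds the core of an RE1 element, of SYP, the largest rise, of STX1A, which holds the most GC boxes, and of SYT4 and SYT11, which fell. The RE1 core was searched because many neuronal genes, SYN1 among them, are known targets of the repressor REST, which binds RE1 and keeps such genes silent in other cell types. The sequences are RefSeq's, on GRCh38.p14, from 250 bases before to 50 bases after an annotated start site, written 5′ to 3′ on the gene's strand. RefSeq's table held such a region for 8 of the 9 genes, all but SNAP25, with a pair of regions for VAMP2. Capitals mark the RE1 core in SYN1, the GC box in SYP and STX1A, and the core of a cyclic AMP response element (TGACG, which reads CGTCA where the match is on the other strand) in SYT4 and SYT11.
SYN1 (chrX:47619808-47620107, minus strand): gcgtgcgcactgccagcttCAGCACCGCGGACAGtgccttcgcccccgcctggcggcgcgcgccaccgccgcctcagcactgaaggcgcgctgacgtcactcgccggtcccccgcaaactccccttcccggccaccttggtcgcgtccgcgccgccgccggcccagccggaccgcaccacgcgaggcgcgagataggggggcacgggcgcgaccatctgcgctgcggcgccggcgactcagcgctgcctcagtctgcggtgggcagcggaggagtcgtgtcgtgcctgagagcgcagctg
SYP (chrX:49200144-49200443, minus strand): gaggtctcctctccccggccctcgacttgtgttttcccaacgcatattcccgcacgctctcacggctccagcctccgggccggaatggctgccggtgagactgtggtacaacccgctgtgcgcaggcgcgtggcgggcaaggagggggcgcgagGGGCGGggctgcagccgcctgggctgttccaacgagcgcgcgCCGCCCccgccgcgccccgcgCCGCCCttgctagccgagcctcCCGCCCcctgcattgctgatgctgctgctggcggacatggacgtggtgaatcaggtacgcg
STX1A (chr7:73719620-73719919, minus strand): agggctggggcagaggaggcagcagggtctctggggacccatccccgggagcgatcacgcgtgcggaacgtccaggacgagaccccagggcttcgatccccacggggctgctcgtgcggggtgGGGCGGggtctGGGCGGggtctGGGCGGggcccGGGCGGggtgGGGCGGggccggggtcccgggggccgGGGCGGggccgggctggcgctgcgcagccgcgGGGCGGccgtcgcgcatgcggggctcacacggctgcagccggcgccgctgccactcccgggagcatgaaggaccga
SYT4 (chr18:43277441-43277740, minus strand): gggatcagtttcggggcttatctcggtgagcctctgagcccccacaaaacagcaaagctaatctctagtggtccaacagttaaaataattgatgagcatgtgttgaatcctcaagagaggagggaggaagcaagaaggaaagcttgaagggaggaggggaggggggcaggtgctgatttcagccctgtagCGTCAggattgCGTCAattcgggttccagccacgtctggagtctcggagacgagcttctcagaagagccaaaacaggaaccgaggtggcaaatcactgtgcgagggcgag
SYT11 (chr1:155859317-155859616, plus strand): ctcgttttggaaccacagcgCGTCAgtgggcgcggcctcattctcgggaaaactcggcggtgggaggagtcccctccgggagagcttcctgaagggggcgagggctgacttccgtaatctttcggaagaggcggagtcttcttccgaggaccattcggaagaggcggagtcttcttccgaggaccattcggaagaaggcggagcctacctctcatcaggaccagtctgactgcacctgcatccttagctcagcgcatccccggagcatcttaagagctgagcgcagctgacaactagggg

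Among these regions the RE1 core, searched as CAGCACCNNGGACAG on both strands, was found in SYN1 alone, beginning 231 bases before its start site, and in 18 of all 35116 promoters of the table (0.0513%). Its left arm, CAGCACC, stood also in SYT4 and in 7.75% of all promoters. The GC box, GGGCGG on either strand, stood in SYP, STX1A, SYT1, VAMP2 and RAB3A and in 45.0% of all promoters. STX1A held 7 copies, the VAMP2 regions 5 and 4, SYP 4, RAB3A 3 and SYT1 1. The core TGACG, on either strand, stood in SYN1, SYT4, SYT11, VAMP2 and RAB3A and in 24.6% of all promoters. In SYN1 its 2 matches overlap on opposite strands. SYT4 had the lowest GC content of the set at 53.3%, SYT11 and SYT1 stood at 60.0% and 62.0%, and RAB3A, SYP, SYN1, STX1A and both VAMP2 regions lay between 69.7% and 81.7%, against a median of 58.7% over all promoters. These matches describe letters in a window and are no measure of binding.

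Of the proteins that coat and tether vesicles, both measured members rose. SYP (chromosome X, 49187804 to 49200259, GRCh38), the synaptophysin gene, stood at 9.84, 8.19 and 9.30 FPKM across the knockdown libraries, against 2.43, 3.05 and 2.82 FPKM in the control libraries. The lowest knockdown value was well clear of the highest control value. Its means were 9.11 ± 0.838 and 2.77 ± 0.311 FPKM (SD, n = 3 each), a 3.29-fold difference and the largest rise of the set (log2 fold change 1.42, SE 0.090, limma adjusted p = 1.64e-06). SYN1 (chromosome X, 47571898 to 47619943), the synapsin I gene, was the lowest of the set in either group, at 3.52, 2.52 and 2.92 FPKM in the knockdown and 1.21, 1.38 and 0.866 FPKM in the control. It rose by 0.89 on the log2(FPKM + 1) scale (SE 0.127, limma adjusted p = 2.90e-04), a scale that understates changes of so low a gene, since its means differed 2.59-fold. The groups did not overlap, though the values within each varied more, relative to their mean, than those of most other members.

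The 3 synaptotagmins moved in different directions. SYT1 (chromosome 12, 78863993 to 79452008), the calcium sensor of fast release, stood at 35.1, 30.3 and 36.0 FPKM in the knockdown, against 21.3, 21.2 and 21.1 FPKM in the control. The control libraries were almost level, and knockdown library 2 was the lowest of its group. SYT1 rose by 0.64 (SE 0.065, limma adjusted p = 3.42e-05). SYT4 (chromosome 18, 43267878 to 43277650), a synaptotagmin found on dense-core vesicles whose first C2 domain lacks a residue needed to bind calcium, stood at 38.7, 33.2 and 40.5 FPKM in the knockdown and at 119, 117 and 113 FPKM in the control. All 3 knockdown values were far below the control values, and the means of 37.5 ± 3.79 and 116.5 ± 3.07 FPKM gave a ratio of 0.322 (log2 fold change -1.61, SE 0.069, limma adjusted p = 1.35e-07), the largest difference of the set in either direction on the log2(FPKM + 1) scale. SYP changed more in the ratio of means, with a pseudocount of 0.1 (1.69, against -1.64 for SYT4) and after quantile normalization (1.48, against -1.33). SYT11 (chromosome 1, 155859509 to 155885199), the closest relative of SYT4, with the same change in that domain, stood at 41.7, 38.6 and 39.9 FPKM in the knockdown and at 49.1, 50.8 and 50.3 FPKM in the control. Its fall of 0.31 (SE 0.043, limma adjusted p = 2.39e-04) was near the middle of all tested genes, since 50.3% of them had a smaller change in size. With quantile normalization the SYT11 call was lost (-0.056, limma adjusted p = 0.238).

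All 3 neuronal SNARE genes rose, by unequal amounts. SNAP25 (chromosome 20, 10218830 to 10307418), whose product gives helices from the plasma membrane side, stood at 31.6, 29.1 and 33.7 FPKM in the knockdown, against 11.1, 12.7 and 12.5 FPKM in the control. The means were 31.5 ± 2.33 and 12.1 ± 0.855 FPKM, a 2.60-fold difference (log2 fold change 1.31, SE 0.071, limma adjusted p = 5.93e-07). STX1A (chromosome 7, 73699206 to 73719672) stood at 8.86, 10.1 and 8.03 FPKM in the knockdown and at 5.10, 5.64 and 5.30 FPKM in the control. It was the single member whose highest knockdown value came from library 2, and it rose by 0.65 (SE 0.084, limma adjusted p = 1.54e-04). VAMP2 (chromosome 17, 8159149 to 8163546), synaptobrevin 2 of the vesicle, stood at 23.2, 21.0 and 21.1 FPKM in the knockdown and at 16.4, 16.2 and 16.8 FPKM in the control. Its rise of 0.38 (SE 0.054, limma adjusted p = 2.55e-04) was the smallest of the 7, a 1.32-fold difference of the means.

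RAB3A (chromosome 19, 18196784 to 18204074), the vesicle GTPase, stood at 10.2, 9.12 and 9.60 FPKM in the knockdown, against 4.95, 3.71 and 5.64 FPKM in the control. The knockdown values lay close together and the control values spread more widely, with library 2 the lowest. The means of 9.65 ± 0.555 and 4.77 ± 0.979 FPKM differed 2.02-fold (log2 fold change 0.90, SE 0.119, limma adjusted p = 1.82e-04). Without single libraries the fold change ran from 0.76 to 1.01, and the call was kept each time.

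The direction of some members depended on how the libraries were scaled. The columns summed to 2123050 to 2449948 FPKM in the knockdown libraries and to 1182985 to 1226728 FPKM in the control libraries. The median of all genes was 0.091 after quantile normalization, and -0.82 after each column was rescaled to the same sum (equal sums), or -0.048 when 6 small RNAs were left out of those sums. With equal sums SYP, SNAP25 and SYN1 were still called higher (0.69, 0.45 and 0.31), RAB3A missed the threshold (0.11, limma adjusted p = 0.395), STX1A turned to -0.14 (limma adjusted p = 0.240), and SYT1 and VAMP2 were called lower (-0.23 and -0.47). Relative to the all-gene median there, the 7 genes stood 0.35 (VAMP2) to 1.51 (SYP) higher, SYT11 0.38 lower and SYT4 1.68 lower. Without the 6 small RNAs in the sums, 7 members were again called higher and 2 lower.

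**Figure D2:**
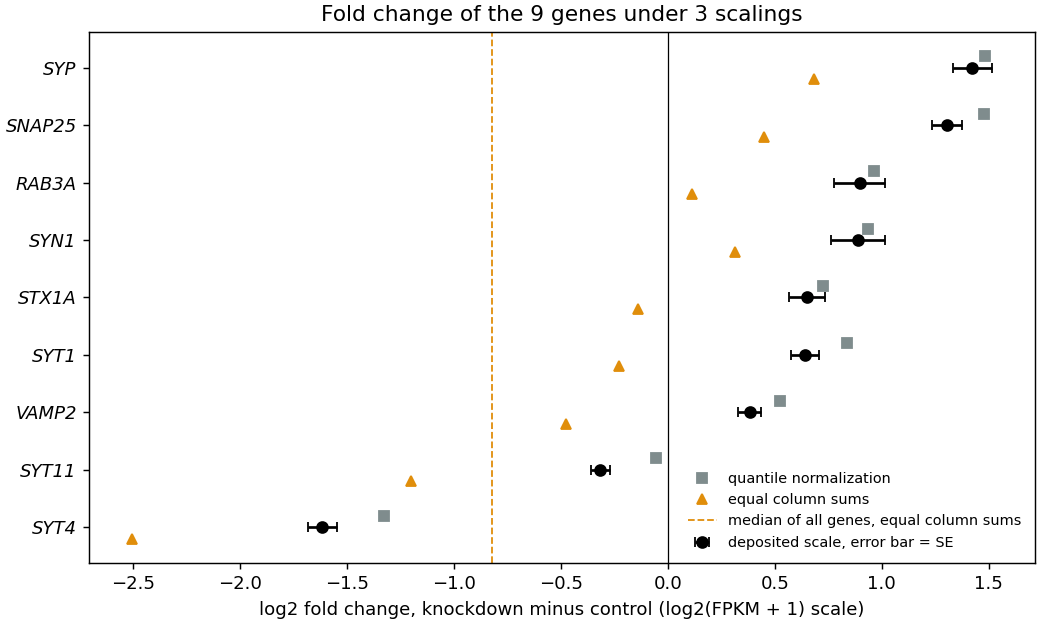
Log2 fold change of each gene, knockdown minus control, on the deposited scale (black, bar = SE), after quantile normalization (squares) and with equal sums (triangles, with the all-gene median there as a dashed line at -0.82). With equal sums SYT1, STX1A and VAMP2 fall below 0 but stay above the dashed line, and SYT4 and SYT11 stay below it.

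The order of levels within the set differed between the groups. In the knockdown SYT11, SYT4, SYT1 and SNAP25 followed each other at means of 40.1, 37.5, 33.8 and 31.5 FPKM, and each overlapped the next in its library values. VAMP2 at 21.8 FPKM stood apart from its neighbours, RAB3A, SYP and STX1A overlapped in turn at 9.65, 9.11 and 8.98 FPKM, and SYN1 came last at 2.99 FPKM. In the control SYT4 led clearly at 116.5 FPKM, followed by SYT11 at 50.1, SYT1 at 21.2, VAMP2 at 16.4 and SNAP25 at 12.1 FPKM, none overlapping the next. STX1A and RAB3A overlapped at 5.35 and 4.77 FPKM, and SYP at 2.77 and SYN1 at 1.15 FPKM came last. SNAP25 thus ranked above VAMP2 in every knockdown library and below it in every control library.

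A ratio of a pair of genes within a library does not change when the whole library is scaled by a single factor. The members were therefore set against relatives that act in other membrane fusion steps. Quantile normalization is not such a factor and was not applied to the ratios. SNAP25 stood at 3.24, 3.36 and 3.16 times the level of SNAP23, the broadly expressed form, in the knockdown libraries, against 0.466, 0.581 and 0.635 times in the control libraries. Each knockdown library held more SNAP25 than SNAP23, and each control library held less. The ratio was 5.85-fold higher in the knockdown (log2 difference 2.55). VAMP2 stood at 1.04, 0.979 and 0.889 times VAMP3, cellubrevin, in the knockdown and at 0.369, 0.355 and 0.385 times in the control, a 2.62-fold difference. STX1A stood at 0.693, 0.753 and 0.758 times STX4, a plasma membrane syntaxin of most cells, in the knockdown and at 0.330, 0.355 and 0.308 times in the control, a 2.22-fold difference. These shifts joined a rise of the neuronal gene to a fall of its relative, with log2 fold changes of -1.09 for SNAP23, -0.95 for VAMP3 and -0.38 for STX4, each called lower on the deposited scale.

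Within the synaptotagmins SYT1 stood at 0.906, 0.913 and 0.889 times SYT4 in the knockdown and at 0.179, 0.181 and 0.187 times in the control, a 4.95-fold difference. SYT11 stood at 1.08, 1.16 and 0.986 times SYT4 in the knockdown and at 0.412, 0.433 and 0.445 times in the control, a 2.49-fold difference. Both of these ratios have SYT4 below the line and are not independent. In all 5 ratios the groups did not overlap. By exact permutation (two-sided) each had p = 0.1, also when adjusted over the 5, which is the smallest value that 3 against 3 libraries allow.

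**Figure D3:**
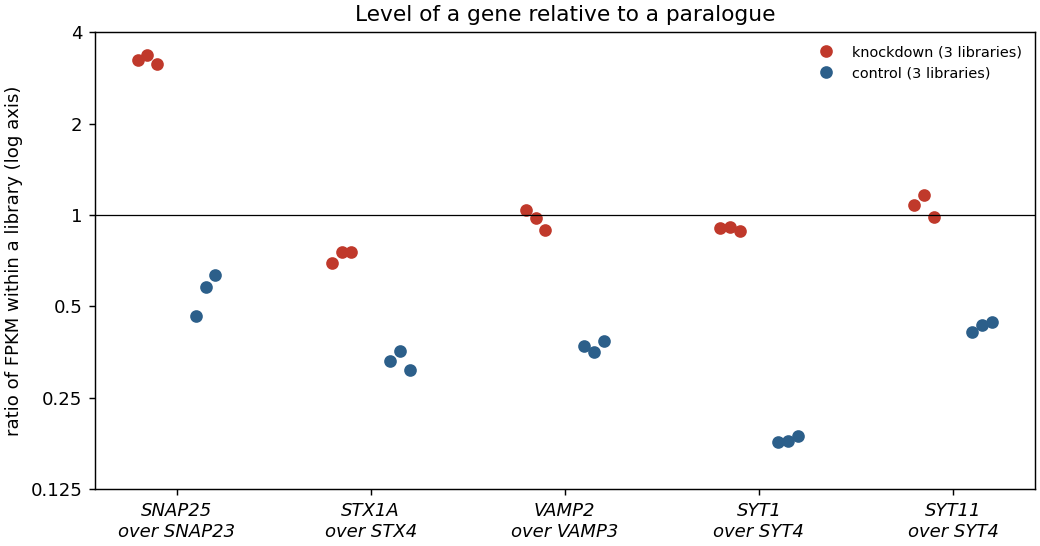
Ratio of the FPKM of a gene to that of a paralogue in each of 3 knockdown and 3 control libraries, on a log axis with a line at 1. SNAP25 over SNAP23 is above 3 in the knockdown and under 1 in the control, and each of the other ratios is also higher in every knockdown library.

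The make-up of whole families, looked at after the values were seen and given without a test, changed in most but not all. SYT4 made up 25.0% ± 1.18 of the summed FPKM of 17 synaptotagmins in the knockdown and 52.3% ± 0.551 in the control (SD, n = 3 each), while SYT1 made up 22.6% ± 0.773 and 9.52% ± 0.129. The family sum itself was 149.6 ± 8.70 FPKM in the knockdown and 222.9 ± 3.78 FPKM in the control. SYP made up 35.3% ± 3.75 of the synaptophysin family in the knockdown and 5.77% ± 0.708 in the control, nearly all of the rest being SYPL1, a relative found in many cell types. In the SNAP-25 family SNAP25 held 51.8% ± 1.64 in the knockdown and 23.2% ± 2.18 in the control.

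RAB3B, a RAB3 form of endocrine cells, held 3.74% ± 0.593 of the RAB3 family in the knockdown and 39.6% ± 2.13 in the control, where it led, and RAB3A held 31.2% ± 2.21 and 15.9% ± 2.96. RAB3C held 36.3% ± 8.49 and 17.4% ± 0.284, the largest mean share in the knockdown, though not the largest in knockdown library 2. The RAB3 sum differed little between the groups, at 31.1 ± 3.38 FPKM in the knockdown and 29.9 ± 0.700 FPKM in the control. VAMP2 held 28.1% ± 1.46 of 7 VAMP genes in the knockdown and 14.6% ± 0.514 in the control. Synapsins were the family whose make-up stayed level, with SYN1 at 23.1% ± 3.65 in the knockdown and 22.7% ± 4.53 in the control, as SYN2 rose too and the family sum stood at 12.9 ± 0.671 FPKM in the knockdown and 5.07 ± 0.183 FPKM in the control.

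**Figure D4:**
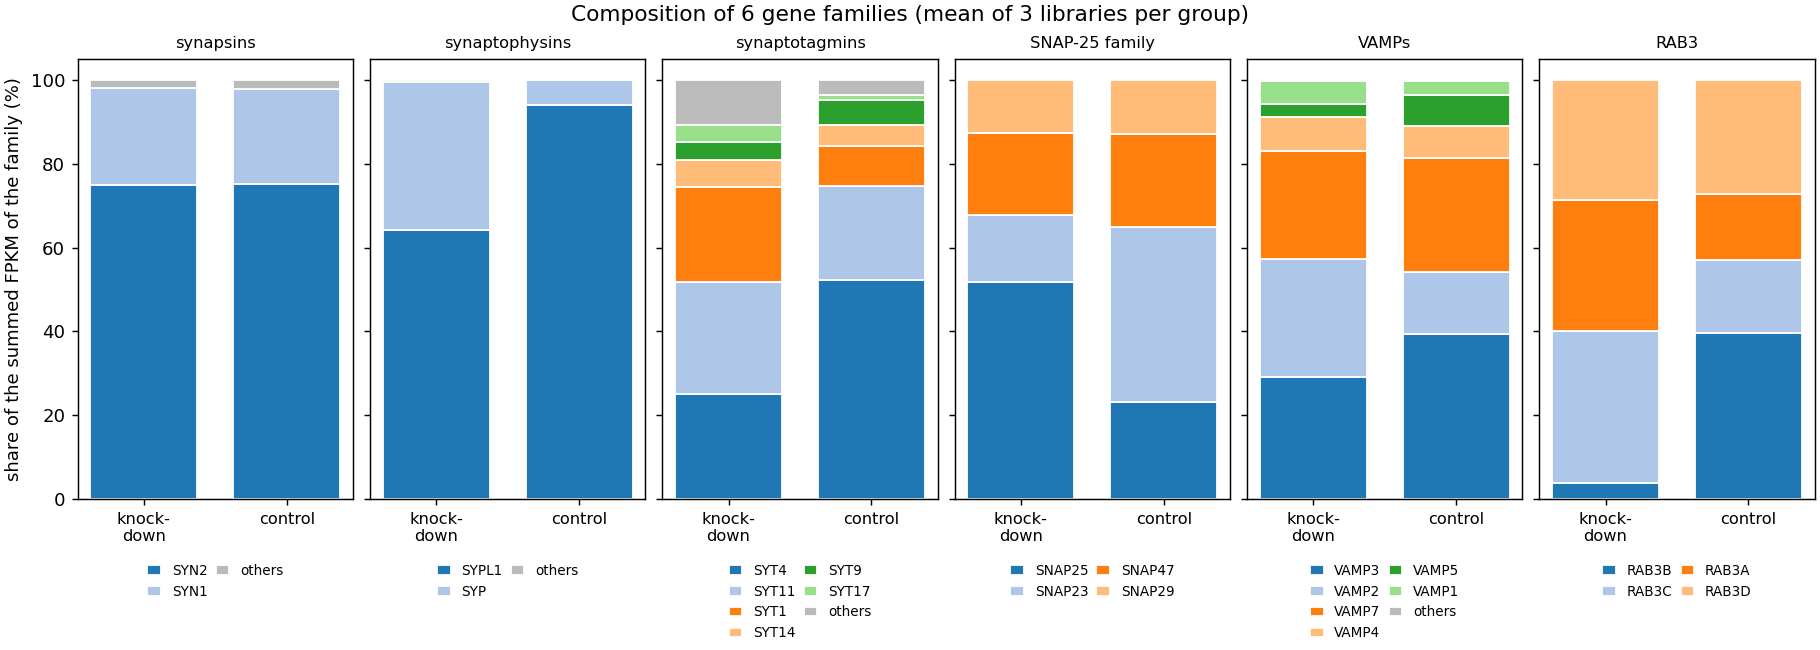
Share of each gene in the summed FPKM of its family, as the mean of 3 knockdown libraries and of 3 control libraries, for 6 families, with genes under 4% in both groups joined as others. SYT4 holds 25.0% of the synaptotagmins in the knockdown and 52.3% in the control, RAB3B 3.74% and 39.6% of the RAB3 genes, and the synapsins look alike in both groups.

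Around the 9 genes, lists of the rest of the release pathway held both rises and falls, as did all tested genes, of which 66.3% were called, 30.5% higher and 35.9% lower. Of 32 tested SNARE genes outside the set, many of which serve the Golgi, endosomes or lysosomes, 4 were called higher and 17 lower, with a median log2 fold change of -0.16. The 65.6% called is close to the 66.3% of all genes. STX3, a syntaxin of apical and ribbon-synapse membranes, stood at 0.944 ± 0.152 FPKM in the knockdown and 4.84 ± 0.143 FPKM in the control, and VAMP5 at 2.48 ± 0.976 and 8.40 ± 1.16 FPKM. SNAP23 stood at 9.70 ± 1.02 FPKM in knockdown libraries and 21.8 ± 2.06 FPKM in control libraries. With equal sums 1 SNARE gene was called higher and 31 lower. Across all 13582 genes tested with equal sums, 505 were called higher and 11840 lower. The equal-sums counts of each list below stand against that background.

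Of 21 tested factors that assemble or take apart SNARE complexes, 7 were called higher and 10 lower (median -0.19), which is 81.0% called, against 66.3% of all genes. The complexins CPLX1 and CPLX2, which clamp and prime SNARE complexes for fast release, stood at 7.27 ± 0.520 and 5.61 ± 0.290 FPKM in the knockdown, against 1.58 ± 0.292 and 1.52 ± 0.135 FPKM in the control. SYTL5 and SYTL3 encode synaptotagmin-like proteins that bind RAB27. SYTL5 was listed at 0, 0.0256 and 0.0424 FPKM across the knockdown libraries, against 2.49, 2.80 and 3.20 FPKM in the control libraries, and SYTL3 stood at 0.701 ± 0.206 FPKM in the knockdown and 4.05 ± 0.259 FPKM in the control. UNC13A (Munc13-1), which helps to open STX1A and was picked after its values were seen, stood at 6.60 ± 0.274 FPKM in the knockdown and 2.47 ± 0.0931 FPKM in the control. Gene-level FPKM does not show how a transcript is spliced, which for UNC13A is known to depend on TDP-43. With equal sums 4 of these factors were called higher and 16 lower.

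Among 13 tested other synaptotagmins and calcium sensors, 7 were called higher and 4 lower (median 0.32), which is 84.6% called, against 66.3% of all genes. With a minimum mean of 5 FPKM, 6 were tested, of which 1 was called higher and 4 lower, and the median turned to -0.70. Of all 9640 genes tested at that minimum, 2761 were called higher and 3891 lower, with a median of -0.062. SYT13 stood at 5.12 ± 0.502 FPKM in the knockdown and 0.489 ± 0.146 FPKM in the control, DOC2B, a soluble sensor of spontaneous and asynchronous release, at 8.82, 11 and 8.95 FPKM across the knockdown libraries and 1.75, 2.17 and 2.92 FPKM in the control libraries, and SYT17 at 5.98 ± 0.709 and 2.42 ± 0.256 FPKM. CADPS, which primes dense-core vesicles, stood at 4.12 ± 0.419 FPKM in the knockdown and 9.23 ± 0.133 FPKM in the control. With equal sums 3 genes of this list were called higher and 7 lower.

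Of 23 tested other vesicle membrane proteins and transporters, 3 were called higher and 13 lower (median -0.32), or 1 and 22 with equal sums. The 69.6% called is close to the 66.3% of all genes. SYN2, synapsin II, stood at 9.70 ± 0.666 FPKM in the knockdown and 3.80 ± 0.118 FPKM in the control. SYPL1 stood at 16.9 ± 3.60 and 45.2 ± 1.77 FPKM, the proton pump subunit ATP6AP2 at 32.0 ± 4.08 and 66.2 ± 2.78 FPKM, and SLC18A3, the vesicular acetylcholine transporter, at 5.21 ± 0.652 and 11.0 ± 0.293 FPKM. The vesicular glutamate transporters SLC17A6, SLC17A7 and SLC17A8 and the GABA transporter SLC32A1 were under the filter.

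Of 29 tested genes of the RAB3 cycle and the active zone, where vesicles dock, 10 were called higher and 7 lower (median 0.076), or 2 and 23 of 30 with equal sums. The 58.6% called is below the 66.3% of all genes. RPH3A (rabphilin), an effector of RAB3A, stood at 13.0 ± 0.729 FPKM in the knockdown and 3.47 ± 0.162 FPKM in the control, and BSN (bassoon), a scaffold of the active zone, at 4.57 ± 0.443 and 1.22 ± 0.0579 FPKM. RAB3B stood at 1.15 ± 0.0476 and 11.8 ± 0.368 FPKM, the largest fall of the list, and RAB3IP, an activator of RAB8, at 1.90 ± 0.251 and 4.75 ± 0.170 FPKM.

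Of 30 tested genes that retrieve vesicles after fusion, 4 were called higher and 17 lower (median -0.23), or 1 and 29 with equal sums. The 70.0% called is close to the 66.3% of all genes, of which 35.9% were lower. SNAP91 (AP180), the clathrin adaptor of nerve terminals that sorts VAMP2, stood at 28.5 ± 1.30 FPKM in the knockdown and 4.72 ± 0.344 FPKM in the control. PICALM, its counterpart in most cells, stood at 32.8 ± 1.60 and 110.7 ± 3.22 FPKM. SYNJ2, a phosphoinositide phosphatase, stood at 1.33 ± 0.128 and 11.6 ± 0.245 FPKM, and SH3GLB1 at 12.5, 11.7 and 13.6 FPKM across the knockdown libraries and 29.7, 29 and 28.4 FPKM in the control libraries.

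**Figure D5:**
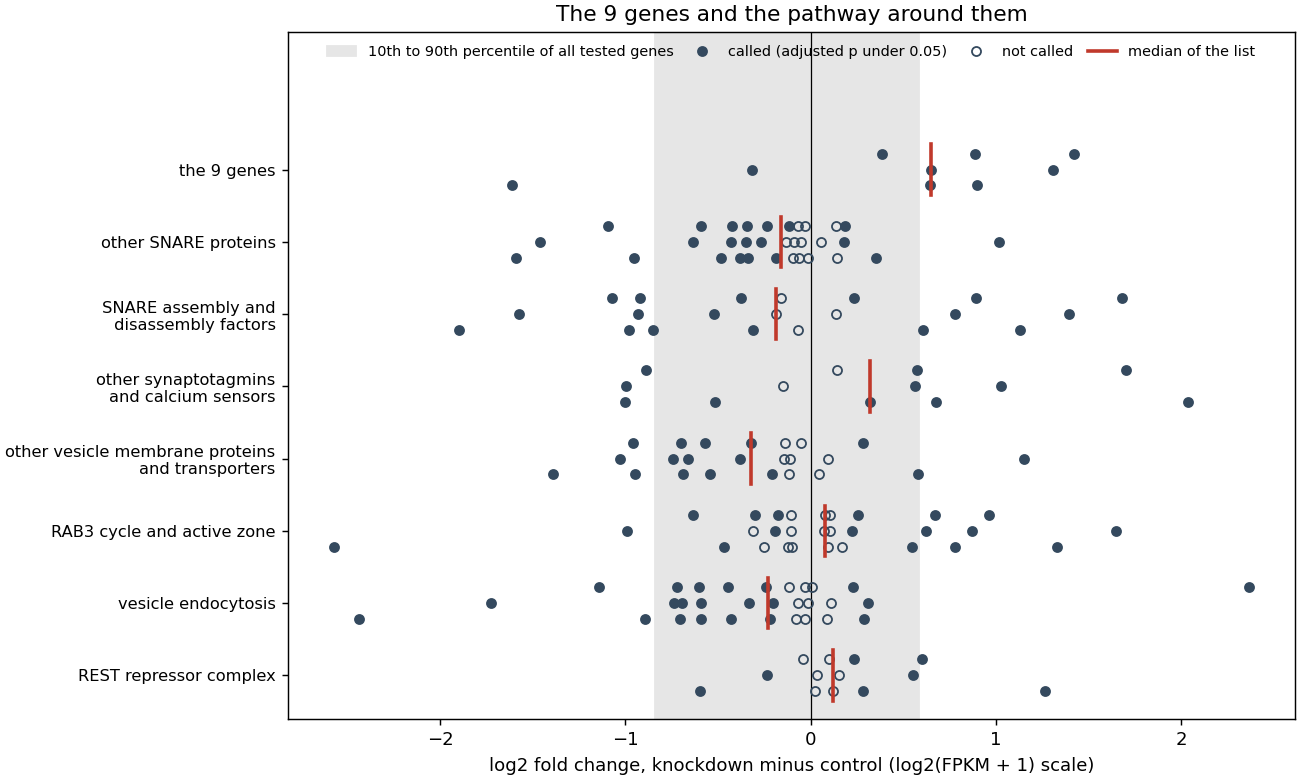
Log2 fold change, knockdown minus control, of each tested gene in the set and in 7 lists around it, filled where called, with a red bar at the median of each list and the 10th to 90th percentile of all tested genes in grey. The median is 0.65 for the 9 genes, 0.32 for the other synaptotagmins and calcium sensors, and between -0.32 and 0.12 for the other lists, on the deposited scale. With equal sums the medians of all lists shown are below 0, as is that of all genes (-0.82).

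Of 13 tested genes of the REST repressor complex, 5 were called higher and 2 lower (median 0.12), or 1 and 12 with equal sums and 10 and 1 with quantile normalization. The 53.8% called on the deposited scale is below the 66.3% of all genes. Quantile normalization called 5390 of all 13434 tested genes higher and 3769 lower, and equal sums called 505 of 13582 higher and 11840 lower. REST stood at 17.8, 15.8 and 18.7 FPKM across the knockdown libraries and 26.9, 27.2 and 26.5 FPKM in the control libraries (log2 fold change -0.60, limma adjusted p = 4.69e-05). RCOR2, a corepressor of the same complex, stood at 12.1 ± 0.384 FPKM in the knockdown and 4.46 ± 0.233 FPKM in the control. The histone demethylase KDM1A stood at 88.4 ± 0.457 and 58.0 ± 0.257 FPKM and the histone methyltransferase EHMT2 at 26.5 ± 1.04 and 17.7 ± 0.909 FPKM, both turning negative with equal sums (-0.29 and -0.31).

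TDP-43 binds runs of UG in RNA, so the longest unbroken run of alternating T and G in any GENCODE v29 protein-coding transcript was measured for each gene. SYT1 held a run of 35 bases in its 3′ untranslated region, a length reached by 119 of 11812 tested genes (1.01%). VAMP2 held 14 bases, also in that region, reached by 4.37% of the genes. The other members held 5 (SYN1) to 9 (SNAP25) bases, reached by 97.6% and 16.8% of the genes. Introns were not searched.

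Some members share their place in the genome with other genes, and whether reads were counted by strand is not given in the sources used here. TIMP1, a mesenchymal marker gene, lies on the other strand inside an intron of SYN1. It stood at 38.5, 44.4 and 34.4 FPKM in the knockdown and at 141, 147 and 145 FPKM in the control, so it moved against SYN1. BUD23, listed under its older symbol WBSCR22, overlaps STX1A tail to tail over 5956 bases, with log2 fold change -0.17, and MPV17L2 overlaps RAB3A over 165 bases, with -0.20 (limma adjusted p = 0.116). ARAF overlaps SYN1 over 23 bases, with -0.27. SNAP25-AS1 and SYP-AS1, the antisense genes of SNAP25 and SYP, reached at most 0.379 and 0.208 FPKM in any library. On the same strand AL009172.2 overlaps SYN1 over 14711 bases and AC129492.3 overlaps VAMP2 over 3827 bases, both touching exons, and on the other strand AC090709.1 and AC027288.3 overlap SYT1. These 4 genes were not analysed here.

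Outside these lists, the gene whose centred log2(FPKM + 1) values lay nearest to those of each member over the 6 libraries, among 13233 candidates, was IGFBPL1 for SYP (distance 0.127), SLITRK6 for SNAP25 (0.122), SERPING1 for SYN1 (0.0635), LINC01590 for RAB3A (0.172), CROCC for STX1A (0.0702), ABCA5 for SYT1 (0.0767), FIZ1 for VAMP2 (0.0572), RIPK1 for SYT11 (0.0348) and EGLN1 for SYT4 (0.0794). These distances include the difference between the groups. Knockdown library 2 gave the lowest knockdown value in 8 of the 9 members, and the fold change of no member moved across 0 or lost its call when any single library was left out.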

How the data were processed

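The deposited table gives FPKM per gene for 6 poly(A) libraries, each a column of its own, with groups from the sample titles. Per the submitters' processing notes the authors' tools were Cuffdiff 2.2.1, TopHat2 2.1.0 and SAMtools, with genome build hg38. Not given in the sources used here are their settings, the annotation and the use of strand. An exact 0 in this table can be a failed estimate.

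The test was limma 3.58.1 (R 4.3.3) on log2(FPKM + 1) with an intensity trend, two-sided, for genes averaging at least 1 FPKM, adjusted by Benjamini-Hochberg over 13434 genes. Ratios were tested by exact permutation (scipy 1.17.1, Python 3.11.15). Relative depth was read from low genes (under 0.3 FPKM), as the most frequent ratio between libraries in windows of 0.01 log2 units. No pair of libraries shared more than 1 identical non-zero value.

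The members and the lists were chosen with earlier results of these data known. Named genes were the members, their paralogues and overlapping genes, up to 4 called genes with the largest change per list, and the most similar gene. The 4 of each marker list are not described singly. A few genes picked by this rule are left out here. Positions are from GENCODE v29 (GRCh38) and promoters from RefSeq (GRCh38.p14). Alternatives were other pseudocounts, filters, scalings, a replicate block, limma run robustly or with no trend, and fits without each library. Shares within families were added after the data were seen.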

Additional observations from a re-analysis of the deposited data

How the results depend on the processing

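Under 12 other settings and with each library left out in turn, most results kept their direction and their call. With columns rescaled to equal sums, 3 members were called higher and 4 lower, SYT1, STX1A and VAMP2 turned to -0.23, -0.14 and -0.47, and called genes numbered 32 of the other SNARE proteins and 13 of the REST complex, where the deposited scale gave 21 and 7. With quantile normalization 1 member was called lower and 11 genes of the REST complex were called. Across all genes, equal sums called 12345 of 13582 and quantile normalization 9159 of 13434, against 8909 on the deposited scale. Of all calls, 45.9% were higher on the deposited scale, 58.8% with quantile normalization and 4.09% with equal sums. With the 6 small RNAs left out of the sums, 42.3% were higher. Why the column sums differed between the groups was not tested. With a minimum mean of 5 FPKM fewer genes were tested, and SYN1 was not among them. Calls then numbered 10 of 12 tested SNARE assembly factors, 5 of 6 synaptotagmins and calcium sensors and 1 of 1 glial marker. The minimum of 1 FPKM gave 17 of 21, 11 of 13 and 3 of 3. Across all genes 6652 of 9640 were called with the minimum of 5 FPKM, against 8909 of 13434. Leaving out single libraries, 7983 to 9128 genes and 9 members were called. Same-numbered libraries did not deviate together (correlations -0.018, -0.185 and -0.091), and other pairs ran from -0.095 to 0.154. These values show no pairing by number, but cannot exclude that same-numbered libraries were prepared together. A replicate block gave 8561 called genes, against 8909, and 9 called members. For the 5 ratios a replicate block left the differences as they were, with an exact sign-flip p of 0.25, the smallest that 3 pairs allow. FPKM gives no depth, so SYN1, near 1 FPKM in the control, is the least certain level.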
